A study of Capra hircus with 9 samples.

Results

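The genes described here encode the channels and carriers discussed for magnesium, calcium and ammonium uptake across the wall of the forestomach. They are the channel genes TRPM6, TRPM7, TRPV3, TRPV4 and TRPV6, the magnesium carrier genes SLC41A1 and CNNM4, and the ammonia channel gene RHCG. They were chosen by name, and all 8 were found among the 18383 genes named in the 9 deposited files. The libraries were made from rumen epithelium of goats (Capra hircus) aged 4 months, 3 from each of the diets HC, MC and LC. The series calls these diets 3 types of concentrate diet and does not spell out the letters, and no treatment other than the diet is given. The labels do not say that each library came from its own animal, so p-values measure only the spread between these samples.

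Ruminants take up most of their magnesium through the rumen epithelium. The ion enters the cell from the lumen through channels and leaves it on the blood side against sodium. The channel-kinases TRPM6 and TRPM7 conduct magnesium, and in humans loss of TRPM6 causes a shortage of magnesium in the blood. SLC41A1 exchanges sodium for magnesium, and in mice CNNM4 carries out the same task on the blood side of gut epithelium. TRPV3 and TRPV4 conduct calcium, sodium and, in cattle, ammonium, while TRPV6 is the calcium entry channel that vitamin D raises in the small intestine. RHCG passes ammonia across membranes of kidney tubules.

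The files listed 15123 to 16696 genes per library, with values in FPKM (fragments per length of transcript and per number of fragments mapped), a scale on which levels of different genes can be set side by side. The HC files have 11468 to 12038 empty lines and no gene names turned into dates, while the MC and LC files have no empty lines and 18 to 21 such names each, so how the files were prepared and HC cannot be told apart. The files hold no read counts, and no gene is listed at 0, so a gene without a value is simply not listed. Low values came in steps, and the steps put the depth of 7 libraries at 0.829 to 1.25 times that of HC1, while LC1 gave no single value. The basal keratin gene KRT5 stood at 3941 ± 947 FPKM in HC, 3979 ± 374 FPKM in MC and 3610.4 ± 792 FPKM in LC (SD, n = 3 each). Of the 6 markers of differentiated epithelium, IVL ranged over 267 to 647 FPKM, TGM1 over 129 to 400.3 FPKM, TGM3 over 247 to 633 FPKM, KRT80 over 33.3 to 123 FPKM and CNFN over 5.59 to 54.6 FPKM in the 9 libraries, and the desmoglein gene DSG1 was near 0, at 0.0156 to 0.205 FPKM. The summed level of 7 smooth muscle markers was 92.2 to 118 FPKM in HC, 1112 to 3478 FPKM in MC and 35.7 to 2272 FPKM in LC, where LC3 alone lay low. Among them ACTA2 differed from the sum, at 25.1 to 32.4 FPKM in HC, 14.8 to 31.0 FPKM in MC and 9.19 to 23.0 FPKM in LC. The median of all 11668 genes tested lay lower in HC, by -0.10 on the log2 scale in HC minus LC and in HC minus MC, and by -0.0067 in MC minus LC.

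Members differed widely in level, and the order was nearly the same under each diet. CNNM4 had the highest FPKM of the 6 members listed everywhere and TRPV3 the lowest in 9 of 9 libraries. CNNM4 stood at or above 77.2% of the genes listed in a library (median of 9 libraries), TRPM6 at 67.9%, TRPV4 at 67.1%, SLC41A1 at 51.9%, TRPM7 at 49.1% and TRPV3 at 40.4%. Each of these 6 genes had more than 1 FPKM in every library and so passed the filter on low values whatever its diet difference. The places of 2 neighbouring pairs changed with the diet. TRPV4 lay above TRPM6 in 3 of 3 HC libraries, in 1 of 3 MC libraries and in 0 of 3 LC libraries. SLC41A1 lay above TRPM7 in 3 of 3 HC libraries, 3 of 3 MC libraries and 1 of 3 LC libraries. In MC the values of TRPM6 and TRPV4 overlapped, and so did those of TRPM7 and SLC41A1 in LC, so these neighbours did not differ beyond their spread there.

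**Figure D1:**
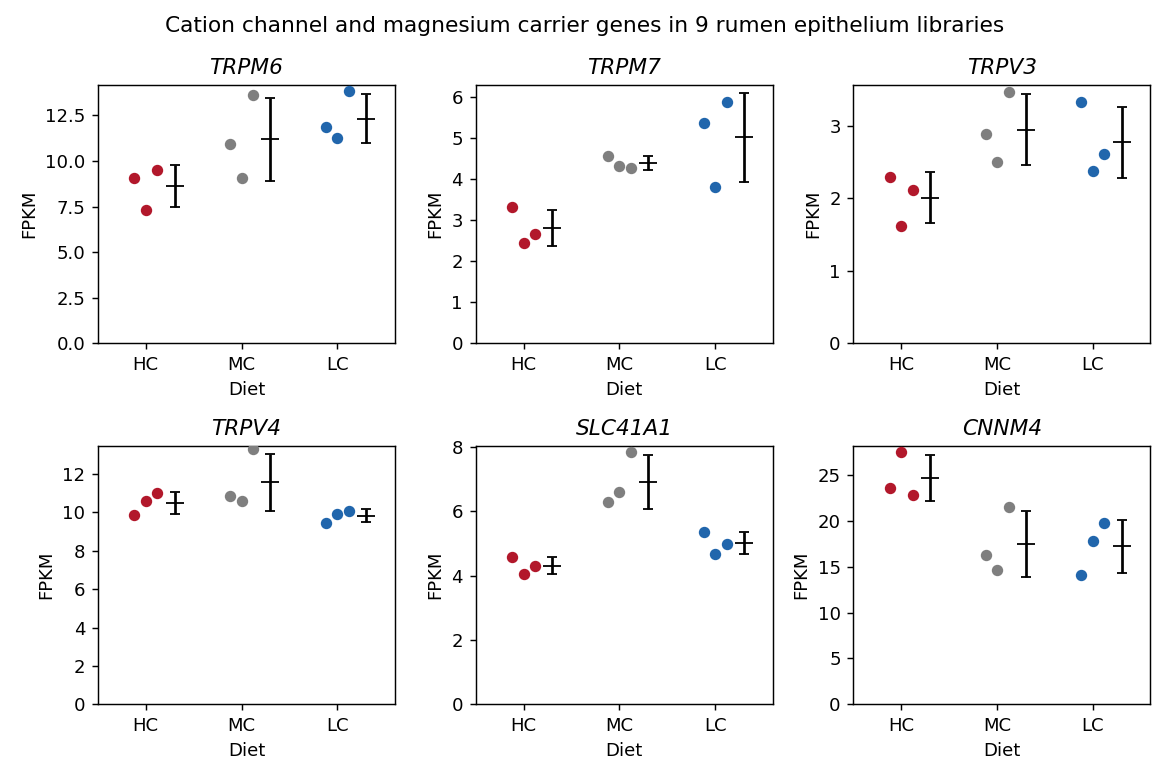
FPKM of the 6 members listed in every library, by diet (HC, MC, LC; each coloured point is 1 library, the black bar and whiskers are the mean ± SD of 3 libraries, and each axis starts at 0). TRPM6 and TRPM7 lie lowest in HC, CNNM4 lies highest in HC, SLC41A1 lies highest in MC, and TRPV4 spans only 9.45 to 13.3 FPKM.

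In HC minus LC 3 of the 6 tested members passed the test, 2 lower and 1 higher in HC, beside 25.2% of all genes tested (17.4% lower and 7.79% higher). In HC minus MC 3 of 6 passed, 2 lower and 1 higher in HC, beside 25.0% of all genes (17.0% lower). In MC minus LC 1 of 6 passed, higher in MC, beside 33.4% (17.1% lower and 16.2% higher). The F test over the 3 diets called TRPM7, SLC41A1 and CNNM4, which is 3 of 6 beside 45.2% of all genes. The median log2 change of the 6 members was -0.25 in HC minus LC, 0.041 in MC minus LC and -0.36 in HC minus MC, beside -0.10, -0.0067 and -0.10 over all genes. Calls here are those of limma on log2(FPKM + 1) at an adjusted p under 0.05, with p-values adjusted over all genes tested. A change on this scale understates that of a low gene such as TRPV3.

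Both channel-kinase genes fell in HC minus LC, and TRPM7 also in HC minus MC. TRPM7 (chromosome 10, 55846049 to 55954221), which is expressed in nearly all cells and joins a magnesium-permeable pore to a protein kinase, had 3.32, 2.46 and 2.68 FPKM in HC1 to HC3. It had 4.58, 4.33 and 4.27 FPKM in MC1 to MC3, and 5.39, 3.81 and 5.90 FPKM in LC1 to LC3. All HC libraries lay below all others, and MC and LC overlapped. The log2 change was -0.65 ± 0.15 (SE) in HC minus LC (adjusted p = 0.00899) and -0.51 ± 0.15 in HC minus MC (adjusted p = 0.0302). In MC minus LC it was -0.14 ± 0.15 (adjusted p = 0.498, 95% interval -0.47 to 0.18). The fall against LC passed the test in each of the 9 fits that left out 1 library (adjusted p 0.0035 to 0.0372), and of all 19 alternatives it was lost only after quantile normalization (-0.41, adjusted p = 0.0639). The fall against MC was lost in 5 of those 9 fits, without HC2 (adjusted p = 0.102), HC3 (0.0948), MC1 (0.0925), MC2 (0.0796) or MC3 (0.0592), and after median-of-ratios scaling (-0.41, adjusted p = 0.0733) or quantile normalization (-0.34, adjusted p = 0.115).

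TRPM6 (chromosome 8, 49460091 to 49625039), the close relative of TRPM7 that is found mainly in epithelia that absorb magnesium, had 9.07, 7.30 and 9.47 FPKM in HC1 to HC3. The MC libraries had 10.9, 9.06 and 13.6 FPKM, and the LC libraries 11.8, 11.3 and 13.8 FPKM. HC and LC did not overlap, whereas MC overlapped both. TRPM6 fell by 0.47 ± 0.15 on the log2 scale in HC minus LC (adjusted p = 0.0418), and the changes of -0.14 ± 0.15 in MC minus LC (adjusted p = 0.519) and -0.33 ± 0.15 in HC minus MC (adjusted p = 0.13) did not pass. The call rested close to the threshold, since it was lost without HC1 (adjusted p = 0.0593), HC2 (0.139), HC3 (0.0644), MC1 (0.0584), LC1 (0.0613), LC2 (0.0578) or LC3 (0.122). It was also lost after median-of-ratios scaling (-0.36, adjusted p = 0.0966) and quantile normalization (-0.33, adjusted p = 0.125), and the direction was the same in each of these fits.

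Of the 2 carrier genes, 1 was highest in HC and 1 in MC. CNNM4 (chromosome 11, 2876807 to 2915345), which extrudes magnesium, had 23.6, 27.5 and 22.9 FPKM in HC1 to HC3. It had 16.3, 14.6 and 21.5 FPKM in MC1 to MC3, and 14.1, 17.8 and 19.8 FPKM in LC1 to LC3. The HC libraries stood above all 6 others, by a narrow margin over MC3. CNNM4 rose in HC minus LC (log2 change 0.50 ± 0.16, adjusted p = 0.0419) and in HC minus MC (0.49 ± 0.16, adjusted p = 0.0474). In MC minus LC it did not pass the test (0.014 ± 0.16, adjusted p = 0.954, 95% interval -0.34 to 0.37). Both rises lay near the threshold. The one over LC was lost without HC1 (adjusted p = 0.0646), HC2 (0.13), HC3 (0.076), MC1 (0.0573), LC1 (0.117) or LC2 (0.0743), and the one over MC without HC1 (0.0668), HC2 (0.151), HC3 (0.0839), MC1 (0.138), MC2 (0.179) or LC2 (0.0624). Scaling to equal summed FPKM gave 0.37 over LC (adjusted p = 0.0796) and 0.32 over MC (adjusted p = 0.112), while median-of-ratios scaling gave 0.62 (adjusted p = 0.0119) and 0.60 (adjusted p = 0.0148). Of 2 fits added after the values were seen, that with the smooth muscle marker mean as a covariate gave 0.31 over LC (adjusted p = 0.233) and 0.13 over MC (adjusted p = 0.754), and that with LC3 alone for LC gave 0.30 over LC (adjusted p = 0.403).

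The neighbour of CNNM4 on the chromosome is its family member CNNM3 (2919385 to 2950260), which starts 4039 bases beyond the end of CNNM4. CNNM3 had 7.37 ± 0.119 FPKM in HC, 7.93 ± 0.934 FPKM in MC and 13.7 ± 1.97 FPKM in LC (SD, n = 3 each), and it fell in HC minus LC (log2 change -0.81 ± 0.13, adjusted p = 0.00101) and in MC minus LC (-0.72 ± 0.13, adjusted p = 0.00131). The ratio of CNNM4 to CNNM3 in a library, which does not depend on how libraries are scaled, was 3.26, 3.69 and 3.08 in HC1 to HC3, against 2.33, 1.84 and 2.43 in MC1 to MC3 and 0.884, 1.43 and 1.56 in LC1 to LC3. The 3 diets did not overlap in this ratio (exact permutation test over 280 groupings of the libraries, p = 0.00357, the smallest it can give). This pair was chosen after the values were seen.

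SLC41A1 (chromosome 16, 2907261 to 2926490) was the member highest in MC. It had 4.57, 4.05 and 4.30 FPKM in HC1 to HC3, 6.29, 6.58 and 7.85 FPKM in MC1 to MC3 and 5.36, 4.67 and 4.99 FPKM in LC1 to LC3. The 3 diets did not overlap, and HC lay only just under LC. SLC41A1 fell in HC minus MC by 0.57 ± 0.12 on the log2 scale (adjusted p = 0.00567), a call that held in each of the 9 fits that left out 1 library (adjusted p 0.00428 to 0.0248). It rose in MC minus LC (0.39 ± 0.12, adjusted p = 0.0233), which was lost without MC3 (0.31, adjusted p = 0.09), LC2 (0.35, adjusted p = 0.08) or LC3 (0.39, adjusted p = 0.0588) and after scaling to equal summed FPKM (0.42, adjusted p = 0.0881). In HC minus LC the change of -0.18 ± 0.12 did not pass (adjusted p = 0.289), and its sign turned after quantile normalization (0.041).

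**Figure D2:**
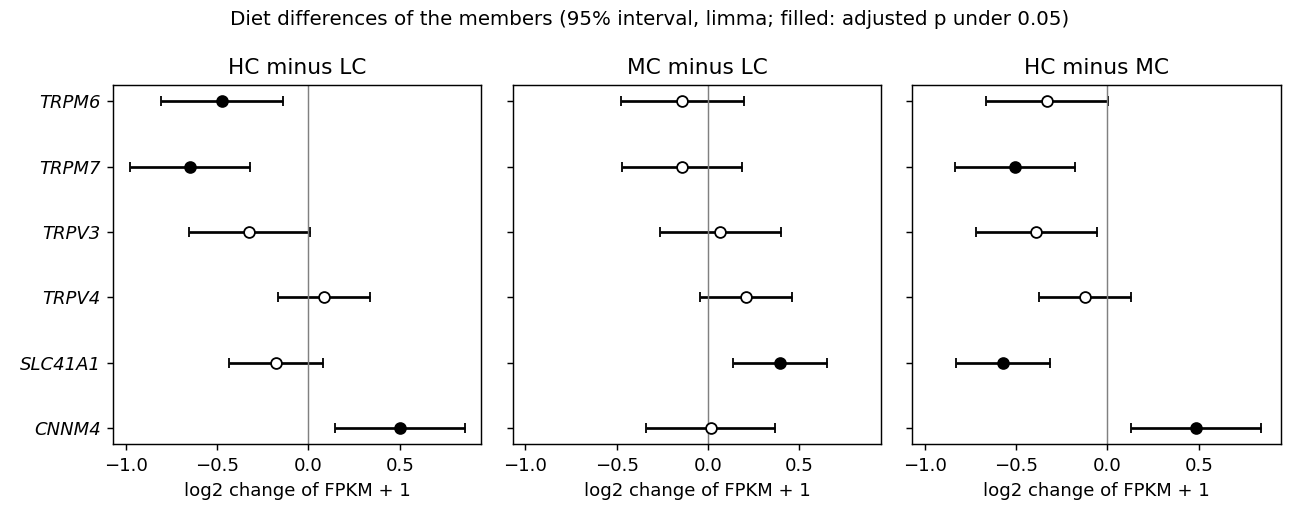
Log2 change of FPKM + 1 of the 6 tested members in the 3 contrasts (points with 95% intervals from limma; filled points have an adjusted p under 0.05). TRPM7 lies left of 0 and CNNM4 right of 0 in both contrasts with HC, and SLC41A1 is filled in MC minus LC (0.39) and HC minus MC (-0.57).

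The tested members of the vanilloid type, TRPV3 and TRPV4, showed no call. TRPV3 (chromosome 19, 23508319 to 23542000), a channel of epidermal keratinocytes that warmth and plant oils open, had 2.30, 1.62 and 2.11 FPKM in HC1 to HC3, 2.88, 2.49 and 3.47 FPKM in MC1 to MC3 and 3.32, 2.37 and 2.61 FPKM in LC1 to LC3. All HC libraries lay below the others, narrowly so for HC1 beside LC2. The log2 changes were -0.32 ± 0.15 in HC minus LC (adjusted p = 0.14), -0.39 ± 0.15 in HC minus MC (adjusted p = 0.0795) and 0.068 ± 0.15 in MC minus LC (adjusted p = 0.768). Without LC1 the change in HC minus MC passed the test (-0.39, adjusted p = 0.049). TRPV4 (chromosome 17, 63049023 to 63073698), which opens on cell swelling, varied least among the members, with a coefficient of variation of 10.5% over the 9 libraries. It had 9.87, 10.6 and 11.03 FPKM in HC1 to HC3, 10.8, 10.6 and 13.3 FPKM in MC1 to MC3 and 9.45, 9.94 and 10.1 FPKM in LC1 to LC3. MC lay above LC without overlap, yet the log2 change was 0.21 ± 0.12 (adjusted p = 0.188). In HC minus LC it was 0.085 ± 0.12 (adjusted p = 0.622, 95% interval -0.17 to 0.34), and it turned to -0.041 after scaling to equal summed FPKM. In HC minus MC it was -0.12 ± 0.12 (adjusted p = 0.452, 95% interval -0.38 to 0.13) and turned to 0.0034 after quantile normalization.

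Without overlap, 4 of the 6 members lay lower in HC than in LC (TRPM6, TRPM7, SLC41A1 and TRPV3) and 1 higher (CNNM4), beside 27.4% and 13.3% of all genes (40.6% in either direction). Between HC and MC 3 members lay lower in HC and 1 higher, beside 31.6% and 14.7% of all genes (46.4% in either direction). Between MC and LC 2 members, SLC41A1 and TRPV4, lay higher in MC, beside 23.8%, and 0 lower, beside 23.4% (47.1% in either direction).

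The 2 remaining members were hardly detected and were not tested. RHCG (chromosome 21, 18875318 to 18900707) was listed at 0.175 FPKM in LC1, 0.216 FPKM in LC2 and 0.1 FPKM in LC3, and it was not listed in any HC or MC library. Of all 18383 genes, 44 (0.239%) were listed in all 3 LC libraries and in no other, beside 17 for MC and 10 for HC. Of the 18383 genes, 13820 were listed in all 9 libraries and so could not show this pattern. TRPV6 (chromosome 4, 102627496 to 102641654) was listed at 0.0194 FPKM in LC1 and 0.0659 FPKM in LC2 and in no other library. Without read counts the number of fragments behind these values is unknown, so no difference between diets was tested. The gene TRPV5, the closest relative of TRPV6, was not listed in any library. RHBG, the relative of RHCG that sits on the blood side of kidney tubule cells, was better detected. It had 1.80, 2.42 and 2.38 FPKM in HC1 to HC3, 1.28, 0.632 and 1.11 FPKM in MC1 to MC3 and 0.895, 0.732 and 0.651 FPKM in LC1 to LC3. All HC libraries lay above the others. RHBG reached 1 FPKM only in the HC libraries, MC1 and MC3. It thus passed the filter on low values only through HC, where it was high, and its calls carry that limit. RHBG rose in HC minus LC (log2 change 0.86 ± 0.16, adjusted p = 0.00306) and in HC minus MC (0.68 ± 0.16, adjusted p = 0.0113). The rise over LC passed in every fit that left out 1 library, and that over MC was lost without HC3 (adjusted p = 0.0501) or MC2 (adjusted p = 0.052) and with the smooth muscle covariate (adjusted p = 0.0818).

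Ratios between members of the same library do not depend on the scaling of libraries. The ratio of CNNM4 to TRPM6 was 2.6, 3.77 and 2.41 in HC1 to HC3, 1.49, 1.62 and 1.58 in MC1 to MC3 and 1.19, 1.58 and 1.43 in LC1 to LC3. HC stood apart from both other diets, which overlapped (exact permutation test over the 3 diets, p = 0.00714, adjusted p = 0.0268 over 15 member pairs). That of CNNM4 to TRPM7 was 8.95 ± 2.07 in HC, 3.99 ± 0.908 in MC and 3.55 ± 1.04 in LC (SD, n = 3 each; exact permutation p = 0.0179, adjusted p = 0.0383), again with HC above all other libraries. That of CNNM4 to SLC41A1 was 5.75 ± 0.906 in HC, 2.52 ± 0.266 in MC and 3.47 ± 0.727 in LC (exact permutation p = 0.00714, adjusted p = 0.0268). The ratio of CNNM4 to TRPV4 was 2.36 ± 0.266 in HC, 1.502 ± 0.117 in MC and 1.75 ± 0.236 in LC (exact permutation p = 0.0107, adjusted p = 0.0268), while that of CNNM4 to TRPV3, at 12.7 ± 3.74 in HC, 5.91 ± 0.273 in MC and 6.45 ± 1.902 in LC, did not pass after adjustment (exact permutation p = 0.0357, adjusted p = 0.0536). The ratio of TRPM6 to TRPV4 was 0.823 ± 0.118 in HC, 0.962 ± 0.0919 in MC and 1.25 ± 0.118 in LC (exact permutation p = 0.0107, adjusted p = 0.0268), with LC above the other libraries. The ratio of TRPM6 to TRPM7 gave no such call, at 3.08 ± 0.414 in HC, 2.55 ± 0.564 in MC and 2.5 ± 0.404 in LC (exact permutation p = 0.293, adjusted p = 0.304).

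In all, 15 pairs of members were compared, and 8 had an adjusted p under 0.05. These included TRPV4 to SLC41A1 and TRPM6 to SLC41A1 (exact permutation p = 0.00357, adjusted p = 0.0268 for each). They also included TRPV4 to TRPM7 (exact permutation p = 0.0214, adjusted p = 0.0402), which was lost in 4 of 9 sets without 1 library. No share over pairs of other genes was computed. Of all genes tested, 45.2% passed the F test over the 3 diets. Pairs share genes and are not independent of each other, and the smallest p of the test is 0.00357. The ratios of CNNM4 to TRPM6, TRPM7 and SLC41A1 kept an exact p under 0.05 whichever library was left out and with LC3 alone for LC, whereas that of TRPM6 to TRPV4 reached 0.0571 with LC3 alone.

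**Figure D3:**
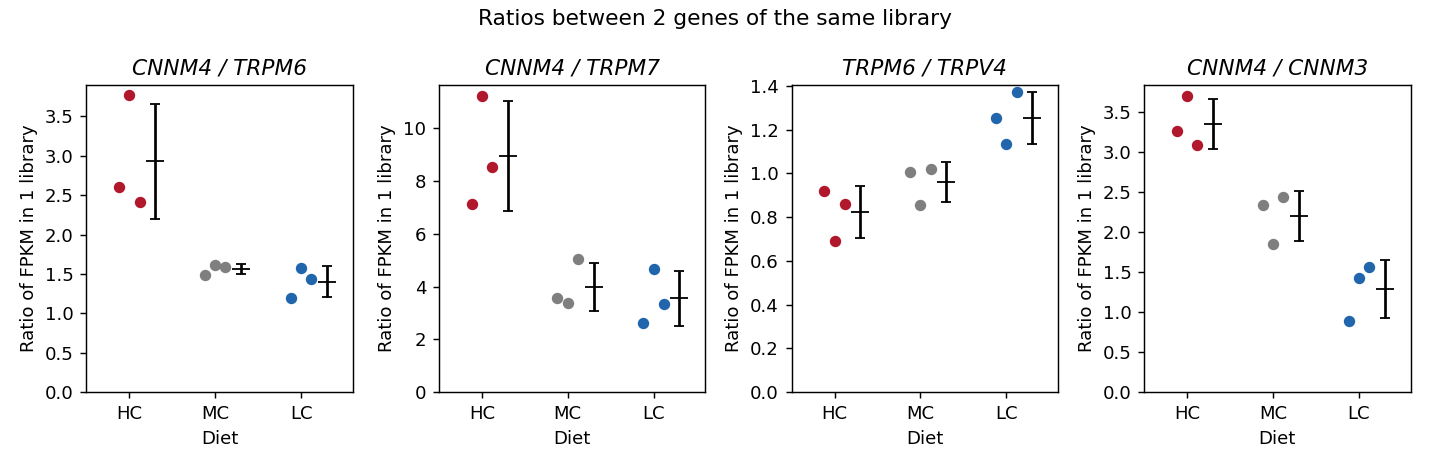
Ratio of the FPKM of 2 genes in the same library, by diet (HC, MC, LC; points are libraries, bars and whiskers mean ± SD, n = 3). The ratios of CNNM4 to TRPM6 and to TRPM7 are highest in the 3 HC libraries, that of TRPM6 to TRPV4 is highest in the 3 LC libraries, and that of CNNM4 to its neighbour CNNM3 separates all 3 diets.

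For the members called over the 3 diets, the likest profiles among all genes tested were found by the root mean square difference of centred log2(FPKM + 1) over the 9 libraries. For TRPM7, whose own profile had a root mean square of 0.317, these were TDG (0.0786), PCYOX1L (0.0981) and LOC106501769 (0.101). For SLC41A1, with 0.254, they were EHD4 (0.0612), PRPF3 (0.0612) and LOC102170395 (0.0627). For CNNM4, with 0.295, they were AKAP1 (0.0914), FEM1A (0.0971) and FBXO46 (0.103).

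Of the wider list of 21 magnesium transport genes, 17 were no members and 9 of these were tested. In HC minus LC 1 rose and 2 fell, in MC minus LC 3 rose and 1 fell, and in HC minus MC 0 rose and 3 fell. Of all genes tested 7.79% rose and 17.4% fell in HC minus LC, 16.2% and 17.1% in MC minus LC, and 8.0% rose and 17.0% fell in HC minus MC, which is the background for these counts and for those of the other lists. Beside CNNM3, these were SLC41A3, MMGT1, NIPAL1, NIPAL3 and MRS2. NIPAL1, a magnesium carrier of the NIPA family, had 3.06 ± 0.268 FPKM in HC, 6.12 ± 1.04 FPKM in MC and 2.92 ± 0.255 FPKM in LC, and like SLC41A1 it rose in MC minus LC (log2 change 0.85 ± 0.13, adjusted p = 5.76e-04) and fell in HC minus MC (-0.80 ± 0.13, adjusted p = 0.00176). MMGT1, which encodes a protein of the endoplasmic reticulum also named as a magnesium transporter, had 18.6 ± 1.89 FPKM in HC, 21.3 ± 0.577 FPKM in MC and 11.4 ± 3.53 FPKM in LC. It rose in HC minus LC (0.69, adjusted p = 0.0139) and MC minus LC (0.88, adjusted p = 0.00248), but with LC3 alone for LC neither passed (adjusted p = 0.345 and 0.0783), and the first was also lost without HC3 (0.0546) or LC2 (0.0526). SLC41A3, a paralogue of SLC41A1, fell in HC minus LC (-0.36, adjusted p = 0.032) and HC minus MC (-0.40, adjusted p = 0.0197). The first call was lost in 10 of 19 alternatives, among them without HC1, HC2, HC3, LC2 or LC3 (adjusted p 0.054 to 0.117), and the second in 5 of 19, among them without HC3 (0.0804) or MC1 (0.0878). MRS2, the magnesium channel of mitochondria, rose in MC minus LC (0.44, adjusted p = 0.0158), and NIPAL3 fell in HC minus MC (-0.39, adjusted p = 0.0344). The call of MRS2 was lost in 6 of 19, among them without MC1, MC3, LC2 or LC3 (adjusted p 0.0502 to 0.0626), and that of NIPAL3 in 9 of 19, among them without any 1 HC or MC library (adjusted p 0.0557 to 0.108).

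Of 29 calcium transport genes 14 were tested, none of them a member. In HC minus LC 0 rose and 5 fell, in MC minus LC 0 rose and 4 fell, and in HC minus MC 1 rose and 3 fell. The 5 in HC minus LC included ATP2A3 (-0.82, adjusted p = 0.0128), which reached 1 FPKM only in LC1 to LC3 and MC2. ATP2A3 thus passed the filter on low values only through LC, where it was high, and its call carries that limit. They also included ATP2C2 (-0.37, adjusted p = 0.042), a call lost in 15 of 19 alternatives. Those in HC minus MC were ATP2C2, which rose (0.46, adjusted p = 0.0185), and ATP2A2 (-0.47, adjusted p = 0.0314), STIM2 (-0.44, adjusted p = 0.0473) and SLC8B1 (-0.38, adjusted p = 0.0481), which fell. These calls in HC minus MC were weak. That of ATP2C2 was lost in 5 of 19 alternatives, among them without HC3, MC1 or MC2 (adjusted p 0.0679 to 0.0751), and that of ATP2A2 in 8, among them without HC1, HC2, HC3, MC1 or MC3 (0.0513 to 0.0999). That of STIM2 was lost in 13, among them without any 1 library but HC3 and LC1 (0.0566 to 0.167), and that of SLC8B1 in 15, among them without any 1 library but LC1 (0.0574 to 0.178). SLC8B1, the sodium-calcium exchanger of mitochondria, had 3.66 ± 0.419 FPKM in HC, 5.05 ± 0.66 FPKM in MC and 8.34 ± 0.673 FPKM in LC (log2 change -1.005 ± 0.13 in HC minus LC, adjusted p = 2.46e-04, and -0.63 ± 0.13 in MC minus LC, adjusted p = 0.00273). ATP2C2, a calcium pump of the secretory pathway, had 2.74 ± 0.0533 FPKM in HC, 1.73 ± 0.288 FPKM in MC and 3.84 ± 0.11 FPKM in LC, and fell in MC minus LC (-0.83, adjusted p = 3.81e-04). The calcium sensor STIM1 of the endoplasmic reticulum fell in HC minus LC (-0.40, adjusted p = 0.0356) and MC minus LC (-0.46, adjusted p = 0.0141). The first call was lost in 10 of 19, among them without HC1, HC3, MC2, LC2 or LC3 (adjusted p 0.0539 to 0.107), and the second without MC1 (0.0639) or with LC3 alone (0.079). The plasma membrane calcium pump ATP2B1, at 18.4 to 28.4 FPKM over the 9 libraries, passed no test in the 3 contrasts.

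The TRP channel list held 26 genes, of which 8 were tested, 4 of them members. Of the 4 others, 0 rose and 2 fell in HC minus LC, 0 rose and 2 fell in MC minus LC, and 1 rose and 0 fell in HC minus MC. TRPM4, a channel for monovalent cations that calcium opens, had 9.88 ± 1.29 FPKM in HC, 10.4 ± 0.949 FPKM in MC and 13.4 ± 1.2 FPKM in LC and fell in HC minus LC (-0.41, adjusted p = 0.0342). TRPV2 reached 1 FPKM only in LC1 to LC3 (2.34, 1.90 and 1.65 FPKM) and HC3 (1.05 FPKM). It thus passed the filter on low values only through LC, where it was high, and its calls carry that limit. TRPV2 fell in HC minus LC (-0.56, adjusted p = 0.0305) and in MC minus LC (-0.86, adjusted p = 0.00249). Both calls in HC minus LC were lost in 10 of 19 alternatives, that of TRPM4 among them without HC1, HC3, MC1, LC2 or LC3 (adjusted p 0.0501 to 0.104) and that of TRPV2 without HC1, HC2, HC3, LC1 or LC2 (0.0668 to 0.0782). With LC3 alone for LC, TRPV2 passed neither in HC minus LC (adjusted p = 0.301) nor in MC minus LC (0.0643). MCOLN1, the lysosomal cation channel, had 19.9 ± 2.85 FPKM in HC, 12.7 ± 0.779 FPKM in MC and 20.9 ± 1.05 FPKM in LC and fell in MC minus LC (-0.68, adjusted p = 0.00168) and rose in HC minus MC (0.60, adjusted p = 0.00583), which was lost after scaling to equal summed FPKM (0.44, adjusted p = 0.0642) and with the smooth muscle covariate (0.59, adjusted p = 0.0896).

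Of the 18 genes listed for ammonium and potassium, 8 were tested, RHBG among them and no member. In HC minus LC 1 rose and 2 fell, in MC minus LC 1 rose and 2 fell, and in HC minus MC 2 rose and 1 fell. KCNK1, a potassium leak channel, had 2.5 ± 0.436 FPKM in HC, 11.1 ± 1.17 FPKM in MC and 4.74 ± 0.0543 FPKM in LC, with log2 changes of -0.72 ± 0.13 in HC minus LC (adjusted p = 0.00186), 1.07 ± 0.13 in MC minus LC (adjusted p = 8.62e-05) and -1.79 ± 0.13 in HC minus MC (adjusted p = 1.26e-05). SLC12A4, a potassium-chloride cotransporter, was low in MC, at 27.9 ± 3.84 FPKM in HC, 16 ± 0.447 FPKM in MC and 29 ± 0.714 FPKM in LC (log2 change -0.82 in MC minus LC, adjusted p = 4.02e-04, and 0.76 in HC minus MC, adjusted p = 0.00144).

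**Figure D4:**
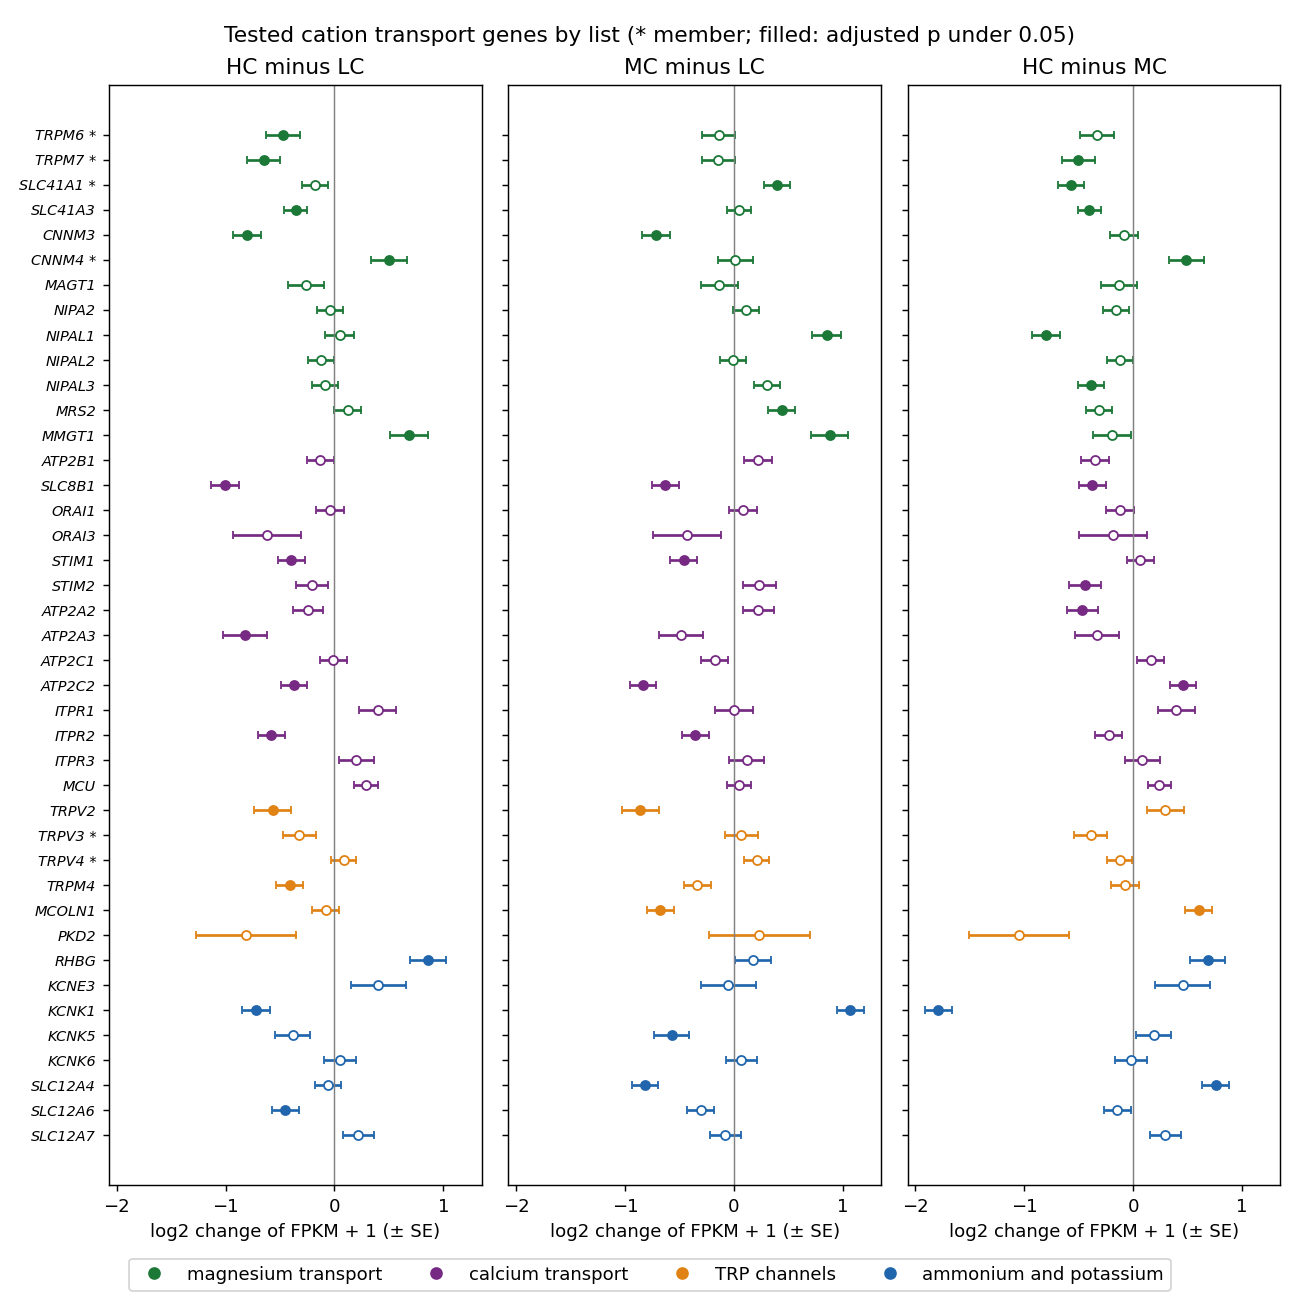
Log2 change of FPKM + 1 with its SE for the tested genes of the 4 cation transport lists in the 3 contrasts (colours mark the list, asterisks the members, filled points an adjusted p under 0.05). KCNK1 lies at -1.79 in HC minus MC, and SLC8B1 and CNNM3 lie left of 0 in HC minus LC and in MC minus LC.

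Markers of some other cell types differed between the diets beside these results, and in whole tissue fewer cells of a type and less RNA per cell cannot be told apart. The summed level of 4 T cell markers was 0.952 to 1.81 FPKM in HC, 0.525 to 1.36 FPKM in MC and 7.24 to 9.11 FPKM in LC, and that of 5 macrophage markers was 26.2 to 34.5 FPKM in HC, 10.1 to 18.8 FPKM in MC and 34.3 to 47.7 FPKM in LC. For 5 endothelial markers it was 6.23 to 11.7 FPKM in HC, 9.55 to 20.9 FPKM in MC and 13.3 to 40.1 FPKM in LC, and for 6 fibroblast markers 122 to 268 FPKM in HC, 120 to 274 FPKM in MC and 205 to 508 FPKM in LC. No fibroblast marker passed the test in any contrast. Of the endothelial markers only VWF did, lower in HC and in MC than in LC. Of the 5 macrophage markers 1 fell in HC minus LC, 4 fell in MC minus LC and 3 rose in HC minus MC. The part of these cells in the falls of TRPM6 and TRPM7 in HC was not tested. The 6 basal markers summed to 4302 to 6465 FPKM in HC, 5043 to 5808 FPKM in MC and 3969 to 6102 FPKM in LC, and the 6 markers of differentiated epithelium to 797 to 1249 FPKM in HC, 1410 to 1790 FPKM in MC and 913 to 1272 FPKM in LC. Within these sums, single markers differed between the diets. The basal integrin gene ITGA6 had 14.8 ± 1.003 FPKM in HC, 24.6 ± 2.22 FPKM in MC and 25.8 ± 3.302 FPKM in LC, and fell in HC minus LC (-0.75, adjusted p = 0.00155) and HC minus MC (-0.69, adjusted p = 0.00318). The transglutaminase gene TGM3 fell likewise (-0.99, adjusted p = 0.00232, and -1.03, adjusted p = 0.00224). The keratin gene KRT80 rose in HC minus LC (1.37, adjusted p = 4.25e-04) and MC minus LC (1.26, adjusted p = 4.40e-04). Other markers of these lists went other ways. The basal marker TP63 rose in HC minus MC (0.43, adjusted p = 0.0327), and COL17A1 fell in MC minus LC (-0.78, adjusted p = 0.0062). CNFN rose in HC minus MC (1.34, adjusted p = 0.0166) and fell in MC minus LC (-1.88, adjusted p = 0.00206). TGM1 rose in MC minus LC (1.08, adjusted p = 0.00197) and fell in HC minus MC (-0.76, adjusted p = 0.0195). KRT5, KRT14, ITGB4 and IVL passed no test. The part of the make-up of the epithelium in the member results was not tested. The red blood cell markers HBB, HBA1 and ALAS2 were not listed in any library, and of 3 B and plasma cell markers, summing to 0.772 to 1.88 FPKM in HC, 1.12 to 1.7 FPKM in MC and 2.42 to 3.38 FPKM in LC, CD79A and CD79B stood at or under 0.15 FPKM where listed.

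With the smooth muscle marker mean as a covariate, a fit added after the values were seen, TRPM7 still fell in HC minus LC (-0.76, adjusted p = 0.0112), as did TRPM6 (-0.61, adjusted p = 0.0282). Both rises of CNNM4 were lost, and so were the calls in HC minus MC of RHBG (0.76, adjusted p = 0.0818), SLC41A1 (-0.60, adjusted p = 0.0754) and TRPM7 (-0.70, adjusted p = 0.0755). Without the covariate the changes in HC minus MC were 0.68 for RHBG, -0.57 for SLC41A1, -0.51 for TRPM7 and 0.49 for CNNM4. Of the 7 smooth muscle markers only DES passed the test without the covariate, lower in HC minus MC (-7.67, adjusted p = 0.0445). That call of DES was lost in 10 of 19 alternatives. The summed muscle markers of HC (92.2 to 118 FPKM) and MC (1112 to 3478 FPKM) did not overlap. In HC minus MC this fit can therefore hardly tell diet and muscle level apart. In LC3 the summed smooth muscle markers lay below those of HC. The fit with LC3 alone leaves 1 library for LC, so only effect sizes are given here. In HC minus LC the log2 changes were -0.86 for TRPM7, -0.63 for TRPM6 and 0.30 for CNNM4, and in MC minus LC 0.40 for SLC41A1.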

How the data were processed

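Trizol RNA of each library was prepared with an Illumina TruSeq kit, per the labels' protocols. The authors deposited 1 FPKM value per gene and library. The submitters' processing notes name Bowtie 1.2.0 and Cufflinks 2.2.1, and FPKM was inferred from these names and from the numbers in the files. The genome build, annotation and use of strand were not given in the sources used here. Starts in the files count from 0 (the mitochondrial COX2 then spans 684 bases) and are printed from 1. Chromosomes are those of RefSeq assembly ARS1.2, matched by symbol for 8 of 8 members. No member shares its locus with another gene. Lines whose names had turned into dates (18 to 21 in each MC and LC file) were left out, and repeated lines of a gene were summed.

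A gene was tested if it reached 1 FPKM in 3 or more libraries and had a value in all 9, which left 11668 genes. They entered limma 3.58.1 in R 4.3.3 on log2(FPKM + 1), in 1 fit of the 9 libraries with trend and robust moderation, two-sided, with Benjamini-Hochberg adjustment over all of them and a threshold of 0.05. The fit was tested on simulated data. Ratios were compared by an exact permutation test over the 3 diets and were chosen after seeing the data. Read depth is not given, so precision is judged from the spread between libraries. Alternatives changed the pseudocount, filter, scaling, moderation, block, covariate and libraries used. The rule for named genes took all members, the 3 likest profiles of each member past the F test and, of each cation transport list, at most 4 called genes a contrast with the lowest adjusted p. ATP2B1, TRPV5, VWF and the single epithelial markers IVL, TGM1, CNFN, TP63 and COL17A1 fall outside it and were chosen after seeing values. So were the muscle markers ACTA2 and DES. Members and lists were chosen with earlier results of these data known. Python 3.11.15 and matplotlib 3.10.9 drew the figures.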

Additional observations from a re-analysis of the deposited data

How the results depend on the processing

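The 19 alternatives were a pseudocount of 0.1, no filter, 3 scalings, plain moderation, only the diets compared, a replicate block, the smooth muscle covariate, LC3 alone for LC and 9 fits without 1 library, the covariate and LC3 alone being chosen after seeing the data. The fall of TRPM7 in HC minus LC and that of SLC41A1 in HC minus MC each kept their call in 18 of 19. Members called in HC minus LC numbered 3, but 1 after quantile normalization, with plain moderation or with LC3 alone, and 1 to 3 without 1 library. In MC minus LC there was 1, but 0 after scaling to equal summed FPKM or with LC3 alone, and 0 to 1 without 1 library. In HC minus MC there were 3, but 0 with the covariate and 1 to 4 without 1 library. Genes called in HC minus LC numbered 2939, but 1379 with LC3 alone and 1769 to 2811 without 1 library. In MC minus LC they numbered 3894, but 2322 with LC3 alone, and in HC minus MC 2917, but 976 with the covariate and 1619 to 4066 without 1 library. The cause of these changes was not tested.

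The split of calls rested on the scale. Of the genes called in HC minus LC 30.9% were higher in HC, but 52.9% after median-of-ratios scaling, 22.2% after scaling to equal summed FPKM and 56.2% after quantile normalization. In HC minus MC these shares were 32%, 53.4%, 16.3% and 54.5%.

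Signs turned only for changes that had not passed the test. TRPV4 gave -0.041 in HC minus LC after scaling to equal summed FPKM and 0.0034 in HC minus MC after quantile normalization, and SLC41A1 gave 0.041 in HC minus LC after quantile normalization. In MC minus LC CNNM4 gave -0.19 with LC3 alone and -0.14 to 0.13 without 1 library, and TRPV3 -0.026 to 0.17 without 1 library.

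The labels do not say that the replicate numbers of the titles pair the libraries. Of same-numbered pairs 6 of 9 had deviations correlated over 0.1 (range -0.0759 to 0.504), against 6 of 18 pairs with different numbers, and 11 of 18 best matches were with the own number. As not every pair passed 0.1, the numbers were not taken as pairs, though the correlations leave a hint of pairing. With the replicate number as a block 5 members were called in HC minus MC and 5 over the 3 diets, against 3 and 3. Those added in HC minus MC were TRPV3 (-0.39, adjusted p = 0.0403) and TRPM6 (-0.33, adjusted p = 0.0347). Of all 11668 genes tested, the block fit called 3871 in HC minus MC and 6418 over the 3 diets, against 2917 and 5274. Calls thus rose among all genes too, not only among the members. Depth in reads is not given, which limits RHCG and TRPV6 most.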
